A study of Mus musculus with 6 samples.

Results

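Serotonin receptor transcripts were measured in isolated mouse pancreatic islets, the clusters of insulin-secreting beta cells and other endocrine and non-endocrine cells of the pancreas. The set holds 10 genes chosen by name, Htr1b, Htr1d, Htr1f, Htr2a, Htr2b, Htr2c, Htr3a, Htr4, Htr6 and Htr7. They are 10 of 48397 genes counted, and 10 of the 14 serotonin receptor genes among them. All islets came from wild-type C57B6 mice, carry the label of a mixed cell type, and recovered overnight in culture before treatment. The control group (3 libraries) received DMSO, a solvent, and the prolactin group (3 libraries) received recombinant mouse prolactin at 500 ng/mL, each for 24 h. Polyadenylated RNA was then sequenced, and the comparison addresses what the hormone changes in islet transcripts. No label ties a replicate to an animal or a culture, so the p-values cover only the spread between these libraries, which may be technical. Values of a group are given in the order of its replicates 1, 2 and 3.

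Serotonin acts through G protein-coupled receptors and through a channel. Receptors of the Htr1 class couple to Gi and lower cyclic AMP, those of the Htr2 class couple to Gq and release calcium from stores, Htr4, Htr6 and Htr7 couple to Gs and raise cyclic AMP, and Htr3a forms a cation channel that serotonin opens. In pregnancy, prolactin and placental lactogen raise serotonin synthesis in mouse beta cells; Htr2b is known there for its part in beta cell expansion, Htr1d for its part in the return to normal mass, and Htr3a for its part in glucose-stimulated insulin secretion.

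The islet samples held between 230833584 and 530296257 assigned reads each. Of all genes, 23924 had enough reads to be tested, and edgeR's quasi-likelihood test at an adjusted p of 0.05 called 156 higher and 25 lower in prolactin, 0.757% of those tested. The label of mixed islets was matched by its markers: 12 beta cell markers summed to between 117168 and 143700 CPM (reads scaled for the depth of each library), 8 alpha cell markers to between 24223 and 38339 CPM, and 8 delta and PP cell markers to between 5759 and 8591 CPM. Markers of other cells were detected as well, with 10 acinar markers at 469 to 2796 CPM, 12 endothelial markers at 350 to 419 CPM, 8 ductal markers at 1216 to 2072 CPM and 12 macrophage and leukocyte markers at 117 to 127 CPM. Prolactin replicates 2 and 3 lay closer together than other replicate pairs, with a median chi-square per gene of 1.41 against 3.30 to 8.92, and were kept as separate libraries, as labelled. That chi-square takes reads as independent, which they may not be, so it does not show that these are separate samples. With both summed into 1 library, edgeR called 42 genes higher and 2 lower and 0 receptor genes, and the log2 change was 0.55 for Htr1b and 0.89 for Htr7, each with an adjusted p of 0.518.

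Receptor transcripts were scarce in these islets. Of the 10 genes, 8 stayed under 1 CPM in all 6 libraries, and Htr2b and Htr3a had a mean of at least 1 CPM. Per length, as CPM per kilobase of gene model, Htr3a came first with a mean level of 2.69 over the 6 libraries (range 1.17 to 3.91), above 56.8% of the genes tested. Htr2b followed at a level of 0.504 (0.373 to 0.610), 5.33 times lower and without overlap with Htr3a. Htr1d at a level of 0.101 (0.0873 to 0.142) and Htr1b at 0.0869 (0.0641 to 0.122) came next and their ranges overlapped, and both lay below every Htr2b value. Htr7, at a level of 0.0318 (0.0165 to 0.0483), lay below every Htr1b value. From Htr7 downwards each neighbour overlapped the next, through Htr2a at 0.0254, Htr6 at 0.0158, Htr4 at 0.00577, Htr2c at 0.00227 and Htr1f at 0.0018. The serotonin-gated channel thus held most of the summed per-length level of the 10 genes in each library, 81.5%, 84.6% and 66.6% in the controls and 69.7%, 78.6% and 75.5% in the prolactin libraries.

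**Figure D1:**
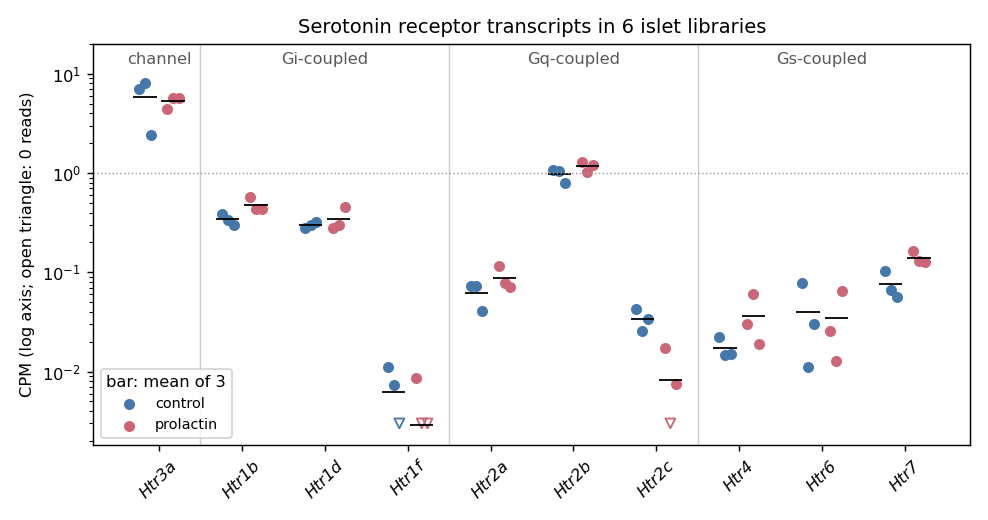
CPM of the 10 receptor genes on a log axis, by G protein class, with a point per library, a bar for the mean of 3 and open triangles for libraries with 0 reads. Htr3a and Htr2b stand near or above the dotted line at 1 CPM and the other 8 genes lie under it.

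No receptor gene passed the threshold between prolactin and control. Of the 10 genes, 6 had enough reads to be tested (Htr1b, Htr1d, Htr2a, Htr2b, Htr3a and Htr7), and edgeR called 0 of them, beside the background of 0.757% of all genes. Their adjusted p-values from edgeR ran from 0.275 to 0.880. At an unadjusted p under 0.05 there were 2 of the 6, Htr1b and Htr7, where 14.5% of all tested genes passed. limma-voom also called 0, where it called 0.74% of all genes, and DESeq2 called 0 of the 4 to which it gave an adjusted p, where it called 5.71% of all genes. The log2 change was positive for 5 of the 6 and its median was 0.38, beside 50.1% positive and a median of 0.00 over all genes tested. Among the 6, the prolactin libraries all lay above the control libraries for Htr1b and Htr7 and for none did they all lie below, while 21.6% of all tested genes were separated, 11.3% upwards and 10.4% downwards. In an exact permutation test of 3 against 3 libraries the smallest two-sided p is 0.1, so that test cannot pass 0.05 for any gene; Htr1b and Htr7 reached 0.1, and the other tested genes had exact p-values from 0.3 to 1.0.

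**Figure D2:**
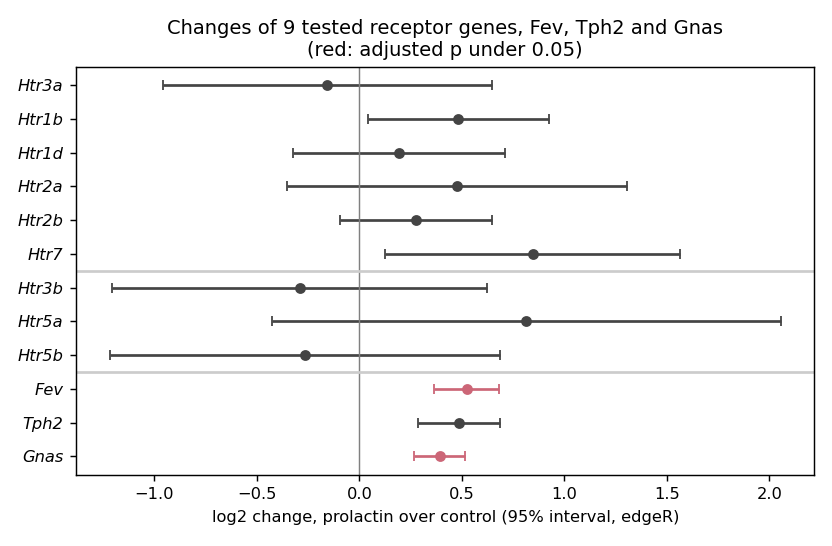
Log2 change of prolactin over control from edgeR, with 95% intervals, for the 6 tested receptor genes of the set, the 3 other tested receptor genes, and Fev, Tph2 and Gnas; genes in red passed an adjusted p of 0.05. The intervals of Htr1b and Htr7 exclude 0 before adjustment and no receptor gene is red.

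Htr3a, the subunit every serotonin-gated channel needs, was the most abundant receptor transcript and differed widely among controls. Its gene lies on the minus strand of chr9:48899214-48911099 (mm10), with 9 exons. The controls had 7.12, 8.13 and 2.44 CPM (3822, 2209 and 653 reads), and the prolactin libraries had 4.46, 5.69 and 5.73 CPM (1033, 1324 and 1518 reads). Control replicate 3 was the lowest of all 6 libraries and the other two controls were the highest, so that the prolactin libraries lay between them. The group means were 5.90 ± 3.04 CPM and 5.29 ± 0.72 CPM (SD, n = 3 each). The log2 change was -0.16 (SE 0.354, 95% interval -0.96 to 0.65), with an edgeR adjusted p of 0.880. This value depended on single control libraries. Without control replicate 3 it was -0.52 (edgeR adjusted p 0.0696), without control replicate 1 it was 0.0029 and without control replicate 2 it was 0.14.

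Htr3b, which can join Htr3a in the channel and lies 23909 bases away on the same strand of chromosome 9, had the same order of extremes. Its CPM were 0.629, 0.663 and 0.191 in the controls and 0.302, 0.460 and 0.457 in the prolactin libraries. The fold of control replicate 2 over control replicate 3 was 3.33 for Htr3a and 3.48 for Htr3b, and the ratio of Htr3a to Htr3b stayed between 11.3 and 14.8 in the 6 libraries. Its log2 change was -0.29 (edgeR adjusted p 0.792). On the other side, Zbtb16, the nearest tested gene, ran from 0.549 to 0.789 CPM.

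Of the 7 neuronal markers listed, 4 had their lowest value in the same control library (among them Chat, Slc18a3 and Prph) and 3 did not. Prph, an intermediate filament of peripheral neurons, had 18.7, 25.99 and 6.04 CPM in the controls and 13.6, 24.0 and 24.5 CPM in the prolactin libraries. Slc18a3, the vesicular acetylcholine transporter, had 4.10, 5.58 and 1.41 CPM against 3.52, 5.96 and 6.13 CPM in the same order. Both genes had their lowest value in control replicate 3 and their next lowest in prolactin replicate 1. Of 8 Schwann cell and glial markers 6 had their minimum in that control, where 22.7% of all tested genes had theirs. Summed, the 7 neuronal markers were not lowest there, with 271, 306 and 279 CPM in the controls and 264, 324 and 320 CPM in the prolactin libraries. The 15 markers together summed to 435 to 488 CPM in control and 438 to 502 CPM in prolactin. None was at 0 in any library. Of the 15, edgeR called 0, with 2 at an unadjusted p under 0.05, beside 14.5% of all tested genes. The part of neurons in the level of Htr3a was not tested, and in bulk RNA fewer cells of a type and less RNA per cell cannot be told apart.

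**Figure D3:**
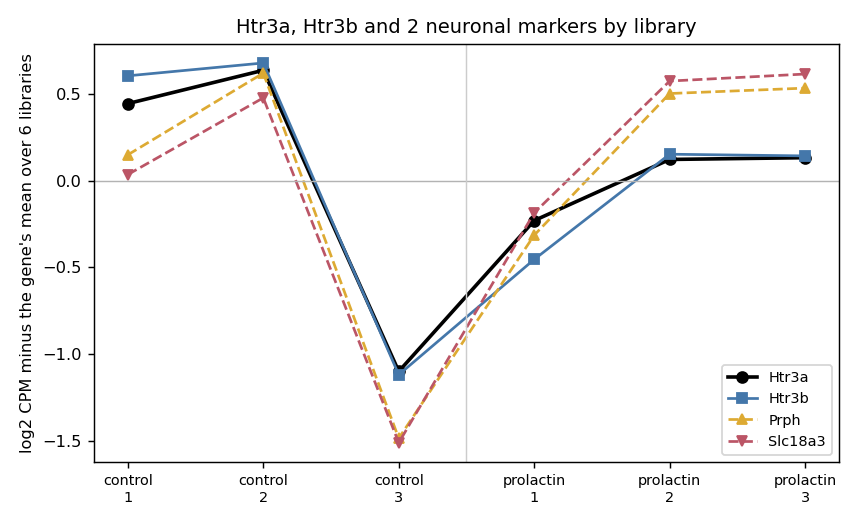
Log2 CPM of Htr3a, Htr3b and 2 neuronal markers in each library, minus each gene's mean over the 6 libraries; lines join values of a gene and imply no order of libraries. All 4 genes have their lowest value in control replicate 3, between 1.10 and 1.51 below their mean.

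By the root mean square difference of centred log2(CPM + 0.5) over the 6 libraries, among 10998 named genes at 5 CPM or more, the 3 genes closest to Htr3a were Sncg (0.234), Nsg2 (0.235) and Nsg1 (0.235), a synuclein and a pair of neuronal vesicle proteins. Sncg had 12.8, 17.2 and 5.40 CPM in the controls, and 10.5, 16.8 and 16.0 CPM in the prolactin libraries. It shared the low value of control replicate 3, but its control replicate 1 lay below prolactin replicates 2 and 3, where that of Htr3a lay above them.

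Among the Gi-coupled receptors, Htr1b was higher in each prolactin library than in every control, without passing the adjusted threshold. The controls had 0.385, 0.335 and 0.303 CPM (207, 91 and 81 reads), and the prolactin libraries had 0.578, 0.430 and 0.430 CPM (134, 100 and 114 reads). The groups did not overlap, and prolactin replicate 1 was the highest. The means were 0.341 ± 0.042 CPM and 0.480 ± 0.086 CPM (SD, n = 3 each). The log2 change was 0.48 (SE 0.195, 95% interval 0.04 to 0.93), with an edgeR unadjusted p of 0.0354 and an adjusted p of 0.304. In the authors' deposited table the log2 change of Htr1b was 0.484 with an adjusted p of 0.279. Htr1b lies on the minus strand of chr9:81628291-81633828 (mm10). It shares 852 of its 4724 exon bases with D430036J16Rik on the other strand, a locus with 38 reads in all.

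Htr1d, which like Htr1b is an inhibitory receptor, is at chr4:136423524-136444398 (mm10). Its controls had 0.279, 0.302 and 0.325 CPM (150, 82 and 87 reads), and its prolactin libraries had 0.281, 0.297 and 0.453 CPM (65, 69 and 120 reads). Prolactin replicate 3 alone stood above the controls. The log2 change was 0.19 (SE 0.228, 95% interval -0.32 to 0.71), with an edgeR adjusted p of 0.752, and without prolactin replicate 3 it was -0.063. Htr1f, the third Gi-coupled receptor, had 10 reads in all, namely 6, 2 and 0 in the controls and 2, 0 and 0 in the prolactin libraries. The libraries with 0 reads allow up to 0.0112, 0.0129 and 0.0113 CPM (3 reads, counting error only), which is no lower than the 0.0112 CPM of the highest library, so no difference was detectable at this depth. Summed per length, the 3 Gi-coupled receptors had levels of 0.173, 0.168 and 0.166 in the controls, and 0.214, 0.184 and 0.233 in the prolactin libraries.

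Among the Gq-coupled receptors, Htr2b was by far the most abundant. The controls had 1.07, 1.05 and 0.796 CPM (575, 284 and 213 reads), and the prolactin libraries had 1.30, 1.02 and 1.209 CPM (301, 238 and 320 reads). Prolactin replicate 2 lay below 2 of the controls, so the groups overlapped. The means were 0.971 ± 0.152 CPM and 1.18 ± 0.14 CPM (SD, n = 3 each). The log2 change was 0.28 (SE 0.164, 95% interval -0.10 to 0.65), with an edgeR adjusted p of 0.490, so the interval includes no change and reaches a rise of 0.65 on the log2 scale.

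The position of Htr2b bears on its count. The gene, on the minus strand of chr1:86099026-86111970 (mm10), lies wholly inside the span of Psmd1, a proteasome subunit on the other strand, and shares 252 of its 2131 exon bases with exons of Psmd1. Psmd1 averaged 160 CPM, and Htr2b amounted to 0.641%, 0.614% and 0.498% of it in the controls and 0.837%, 0.666% and 0.784% in the prolactin libraries. The counting did not use strand, so unspliced Psmd1 reads over Htr2b exons cannot be told apart from Htr2b reads. Psmd1 itself had a log2 change of -0.10 (edgeR adjusted p 0.401). That value comes from reads over Psmd1 exons and does not measure its unspliced reads. Their part in the Htr2b count was not tested. The 3 genes closest to Htr2b by the same measure of likeness, among 10999 candidates, were Tgfb1 (0.0305), a cytokine, Homer3 (0.0324), a scaffold protein, and Cav2 (0.0333), a caveolin. The 0.5 added to CPM shrinks deviations of a gene near 1 CPM more than those of candidates at 5 CPM or more. For Htr2b in control replicate 3 the deviation was -0.273 with it and -0.416 without it, so these distances depend on it. Tgfb1 had 35.6, 35.8 and 30.4 CPM in the controls and 43.6, 35.8 and 39.0 CPM in the prolactin libraries, low in control replicate 3 and high in prolactin replicate 1 as Htr2b was.

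Htr2a, known for its role in smooth muscle and neurons, had 39, 20 and 11 reads in the controls and 27, 18 and 19 reads in the prolactin libraries. These are 0.0726, 0.0736 and 0.0411 CPM against 0.117, 0.0774 and 0.0718 CPM, which overlap. Its log2 change was 0.48 (SE 0.367, 95% interval -0.35 to 1.31), with an edgeR adjusted p of 0.609. Htr2c, at chrX:146962513-147197277 (mm10), was the only receptor gene of the 10 whose prolactin libraries all lay below the controls. Among all tested genes, 10.4% were separated downwards in this way. It had 23, 7 and 9 reads in the controls and 4, 0 and 2 reads in the prolactin libraries, that is 0.0428, 0.0258 and 0.0336 CPM against 0.0173, 0 and 0.0076 CPM. With 45 reads in all it had too few to be tested. In the fit with no filter on low counts its log2 change was -2.02, with an edgeR unadjusted p of 0.0255 and an adjusted p of 0.366. The library with 0 reads allows up to 0.0129 CPM.

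Among the Gs-coupled receptors, Htr7 had the largest positive change of the 6 tested genes. The controls had 0.104, 0.0663 and 0.0560 CPM (56, 18 and 15 reads), and the prolactin libraries had 0.164, 0.129 and 0.128 CPM (38, 30 and 34 reads). All prolactin libraries lay above all controls. The means were 0.0755 ± 0.0254 CPM and 0.140 ± 0.020 CPM (SD, n = 3 each). The log2 change was 0.85 (SE 0.318, 95% interval 0.13 to 1.56), with an edgeR unadjusted p of 0.0261 and an adjusted p of 0.275. The authors' deposited table gives Htr7 a p of 0.0552 and no adjusted p. The gene is on the minus strand of chr19:35958734-36057507 (mm10).

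Htr4 and Htr6 were near the limit of detection. Htr4, which raises cyclic AMP in gut and brain, had 12, 4 and 4 reads in the controls and 7, 14 and 5 reads in the prolactin libraries, a range of 0.0147 to 0.0602 CPM with overlapping groups. Htr6, chiefly known as a brain receptor and located at chr4:139061108-139075570 (mm10), had 42, 3 and 8 reads in control and 6, 3 and 17 reads in prolactin, in the order of replicates, a range of 0.0110 to 0.0782 CPM. In the fit with no filter, edgeR adjusted p-values were 0.664 for Htr4 and 0.901 for Htr6.

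Htr1b, Htr2a, Htr2b and Htr7 shared their extreme libraries: each was lowest in control replicate 3 and highest in prolactin replicate 1. These are 4 of the 6 tested receptor genes, a pattern seen in 7.45% of all genes tested. Among 12 markers of fibroblasts, stellate cells and pericytes, which surround islet vessels and ducts, it was seen in 10, and all 12 were lowest in control replicate 3, beside 22.7% of all tested genes. Those markers summed to 378 to 561 CPM in control and 755 to 936 CPM in prolactin, with none at 0 in any library. Their log2 changes were positive for 12 of 12, with a median of 0.47, and edgeR called 2 of them higher, the collagens Col1a1 (log2 change 0.86, adjusted p 0.0382) and Col1a2 (0.92, adjusted p 0.0482). Of 12 endothelial markers edgeR called 2 higher, Vwf (log2 change 0.59, adjusted p 0.0161) and Cd34 (0.56, adjusted p 0.0267). With single libraries left out in turn, Col1a1 and Col1a2 passed in 1 of 6 fits, the one without control replicate 3, with adjusted p-values otherwise up to 0.136 and 0.158; Vwf passed in 3 of 6 (up to 0.129) and Cd34 in 2 of 6 (up to 0.163). Other lists shared parts of the pattern, and genes with both extremes were not counted in them. Lowest in control replicate 3 were 6 of 8 alpha cell, 4 of 8 ductal, 2 of 12 endothelial and 1 of 12 beta cell markers. Highest in prolactin replicate 1 were 1, 6, 2 and 0 of them in the same order. Log2 changes were positive for 6, 8, 12 and 6 of them. The part of any of these cells in the receptor values was not tested. Without control replicate 3 the log2 change of Htr1b was 0.40, that of Htr2a 0.27, that of Htr2b 0.15 and that of Htr7 0.68. Without prolactin replicate 1 the values were 0.33, 0.23, 0.20 and 0.72 in the same order, so all 4 kept a positive sign and those of Htr2a and, without control replicate 3, Htr2b moved by more than 1.5 times.

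**Figure D4:**
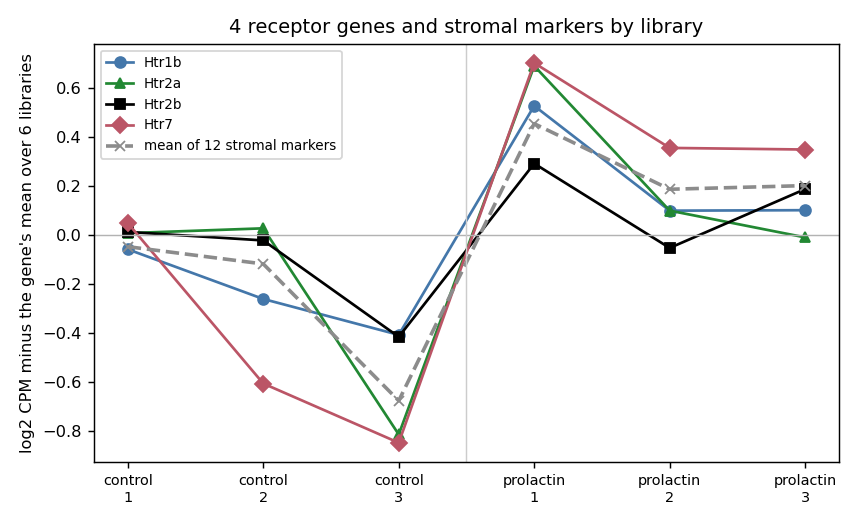
Log2 CPM of Htr1b, Htr2a, Htr2b and Htr7 in each library, minus each gene's mean over the 6 libraries, with the mean of 12 fibroblast, stellate cell and pericyte markers as a dashed line; lines join values and imply no order. All 5 profiles are lowest in control replicate 3 and highest in prolactin replicate 1.

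Htr1b and Htr7 had separated libraries, and they share those extreme libraries with Htr2b and Htr2a. The upstream sequence of Htr2a is not shown. Those of Htr1b, Htr7 and Htr2b follow. They are the 250 bases before each gene's RefSeq start (GRCm38.p6, minus strand, 5′ to 3′), and capitals mark the match described next. For Htr7 the gene model used for counting begins at chr19:36057507, inside the printed stretch. Part of that stretch thus lies within the counted gene.
Htr1b chr9:81633833-81634082: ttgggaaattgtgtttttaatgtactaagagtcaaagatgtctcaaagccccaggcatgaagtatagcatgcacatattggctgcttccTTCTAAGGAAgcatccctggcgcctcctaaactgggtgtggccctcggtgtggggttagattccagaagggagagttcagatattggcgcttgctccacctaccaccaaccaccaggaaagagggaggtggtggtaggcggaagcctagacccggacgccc
Htr7 chr19:36057361-36057610: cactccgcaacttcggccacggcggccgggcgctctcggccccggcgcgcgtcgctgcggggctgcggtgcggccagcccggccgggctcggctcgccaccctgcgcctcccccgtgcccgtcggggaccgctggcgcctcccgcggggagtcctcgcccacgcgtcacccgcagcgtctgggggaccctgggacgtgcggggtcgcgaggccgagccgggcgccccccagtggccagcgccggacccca
Htr2b chr1:86111981-86112230: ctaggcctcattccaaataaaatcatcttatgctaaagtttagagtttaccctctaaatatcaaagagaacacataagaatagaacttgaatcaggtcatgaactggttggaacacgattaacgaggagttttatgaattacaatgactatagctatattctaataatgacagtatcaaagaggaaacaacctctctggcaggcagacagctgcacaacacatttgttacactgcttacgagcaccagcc
Prolactin acts through STAT5, whose known binding site has the form TTCNNNGAA. Windows of 300 bases, from 250 before to 50 after the start, were found for 8 of the 10 genes (10 windows). TTCNNNGAA, which reads the same on both strands, was in 0 of those 10 windows and in 8.30% of 32851 RefSeq windows. The form with a further base in the middle, TTCNNNNGAA, also the same on both strands, was in 1 of 10, that of Htr1b, as TTCTAAGGAA at 161 bases before the start, and in 6.95% of all windows. The forms do not overlap there. GC content differed widely, with 53.3% in the Htr1b window, 81.0% in that of Htr7 and 41.0% in that of Htr2b, beside a median of 52.7% over all windows.

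Around the receptor genes, the nearest tested gene on each side did not pass the threshold in any of 20 cases by edgeR. The smallest adjusted p was 0.0890, and 4 had an edgeR unadjusted p under 0.05, beside 14.5% of all tested genes. The remaining serotonin receptors were as scarce as most of the set. Htr5b had 179 reads over the 6 libraries, Htr5a had 71 and Htr1a had 18, while Htr3b had 867. Of these 4, the 3 that could be tested had edgeR adjusted p-values of 0.549 for Htr5a, 0.792 for Htr3b and 0.819 for Htr5b.

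On the ligand side of the pathway, Tph1 and Fev passed the threshold. Of 17 genes for serotonin synthesis, storage, uptake and breakdown, edgeR called 2 higher and 0 lower, with a median log2 change of -0.03. Tph1, the enzyme that limits the making of serotonin in peripheral tissues, had 0.130, 0.0773 and 0.112 CPM in the controls and 3.83, 2.99 and 3.46 CPM in the prolactin libraries. Its log2 change was 4.97 (SE 0.204), with an edgeR adjusted p of 2.01e-05. Fev, a transcription factor of serotonin neurons and beta cells, rose from 7.21 ± 0.08 to 10.4 ± 0.5 CPM (SD, n = 3 each). The log2 change of Fev was 0.52, with an edgeR adjusted p of 0.0147 that no longer passed when control replicate 2 (0.0641), prolactin replicate 2 (0.135) or prolactin replicate 3 (0.128) was left out. Tph2, the neuronal form of the enzyme, had a log2 change of 0.49 and an edgeR adjusted p of 0.0501, just over the threshold. Tph2 passed it in 9 of 15 alternatives, DESeq2 and limma-voom included. With single libraries left out in turn, Tph2 passed in 1 of 6 edgeR fits, the one without control replicate 2. Adjusted p-values were otherwise up to 0.233.

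Of the signalling genes behind the receptors, Gnas alone passed the threshold. Of 21 Gi and Go effectors edgeR called 0, with 5 at an unadjusted p under 0.05 and a median log2 change of 0.03. Among all tested genes 14.5% had an edgeR unadjusted p under 0.05, the share to set beside such counts here. The smallest adjusted p-values there were 0.0708 for Gnai1, a Gi alpha subunit (log2 change 0.38), and 0.0712 for Gng12, a G protein gamma subunit (-0.29). Of 17 Gq effectors edgeR called 0, with 2 at an unadjusted p under 0.05 and a median of 0.04. The calcium release channel Itpr1 there had a log2 change of 0.25, with an adjusted p of 0.114. Of 21 Gs effectors edgeR called 1 higher and 0 lower, with a median of 0.05. That gene was Gnas, which encodes the Gs alpha subunit and rose from 173 ± 7 to 227 ± 2 CPM (SD, n = 3 each). Its log2 change was 0.39, with an edgeR adjusted p of 0.0181 that passed without control replicate 1 or 3 only. Left out singly, control replicate 2 gave 0.0748 and prolactin replicates 1, 2 and 3 gave 0.0602, 0.153 and 0.148. The cyclic AMP phosphodiesterase Pde4d came next, with a log2 change of 0.24 and an adjusted p of 0.106. Of 17 receptor partners, kinases, arrestins and channel chaperones edgeR called 0, with 1 at an unadjusted p under 0.05 and a median of 0.01. The chaperone Ric3 stood at -0.12 (adjusted p 0.303) and the transglutaminase Tgm2, which can couple serotonin to proteins, 0.20 (adjusted p 0.351).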

How the data were processed

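Islet mRNA was sequenced in 6 libraries, 3 per condition. Each deposited table gives, per the file headers, integer read counts by gene name from featureCounts 2.0.3 on GENCODE vM10 models. Further tools in the submitters' processing notes are SAMtools 1.21, Subread 2.1.0 and DESeq2, with the build mm10. No source used here names an aligner. Per the file headers, the counting did not use strand or pairs, and even numbers made up 53.9% to 56.3% of counts from 1 to 20, so mates may be counted separately and reads overstate independent fragments. The authors' deposited results table holds log2 fold changes, p-values and adjusted p-values, beside a mean signal over libraries and the test statistic, a score.

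These counts were fitted in edgeR 4.0.16 (R 4.3.3) after TMM scaling, keeping genes that pass filterByExpr (count of 10, total of 15), by a quasi-likelihood fit with condition as the only term, adjusted by Benjamini-Hochberg over 23924 genes, threshold 0.05. CPM use TMM-scaled totals. Exact permutation tests used log2(CPM + 0.5). Limits from a count of 0 take 3 reads. Alternatives were other scalings and filters, DESeq2 1.42.0, limma-voom (limma 3.58.1), a replicate block, halved counts, summed prolactin replicates 2 and 3, and leaving out each library. On simulated data (23924 genes, prolactin against control) edgeR recovered 65% of changes of 1 (log2) and 93% of changes of 2. Of its calls, 9.20% were false. The changed genes were drawn from all genes tested, so recovery at the low counts of most receptor genes was not measured.

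The receptor genes and all lists were chosen with earlier results of these data known. Named are the receptor genes, the called genes of each list with the 2 smallest p-values of each pathway list, the 3 genes most like each receptor gene at 1 CPM or more, overlapping genes, and nearest neighbours; of the neuronal markers, Prph, Slc18a3 and Chat were named after their values were seen. Some genes under this rule are not reported here. Of 214 list entries, 3 matched through a synonym of RefSeq and 0 were unmatched.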

Additional observations from a re-analysis of the deposited data

How the results depend on the processing

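The count of called receptor genes was 0 higher and 0 lower in all 15 alternatives, of which DESeq2 gave no adjusted p for Htr2a and Htr7, the filter of 1 CPM kept only Htr2b and Htr3a, and halved counts left out Htr2a. Leaving out single libraries moved Htr1d between -0.063 and 0.32 and Htr3a between -0.52 and 0.14 on the log2 scale. Of 85 receptor values, 3 changed sign: Htr1d was -0.063 on the log2 scale without prolactin replicate 3, and Htr3a was 0.0029 without control replicate 1 and 0.14 without control replicate 2. The smallest adjusted p of any was 0.0696, for Htr3a without control replicate 3. Counts over all genes moved more. The 156 genes higher became 470 with no filter, 776 with DESeq2 and 42 with prolactin replicates 2 and 3 summed, and the 25 lower became 127, 303 and 2 in the same settings and 46 with the filter of 1 CPM. Leaving out single libraries gave 39 to 342 higher and 1 to 234 lower: control replicate 3 left out gave 342 and 234, control replicate 1 121 and 15, control replicate 2 63 and 10, prolactin replicate 1 86 and 8, prolactin replicate 2 39 and 1, and prolactin replicate 3 39 and 2. The causes were not tested. Depth limits Htr1f, Htr2c, Htr4 and Htr6, which rest on 10 to 79 reads each.

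Whether the replicate numbers pair the samples was not settled. Deviations of same-numbered libraries correlated at 0.394, 0.243 and -0.0363. Libraries of different number were not compared in this way, so these values cannot decide it. With the replicate block, 464 genes were called higher and 134 lower, and no receptor gene was called, with adjusted p-values of 0.216 for Htr1b and 0.179 for Htr7.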

Other observations

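Set against Slc18a3, a neuronal marker that shares its low value in control replicate 3, Htr3a was lower in every prolactin library than in every control. The ratio of Htr3a to Slc18a3 was 1.73, 1.46 and 1.74 in the controls and 1.27, 0.955 and 0.935 in the prolactin libraries, without overlap. The ratio to Prph overlapped, at 0.380, 0.313 and 0.404 against 0.328, 0.238 and 0.234, as did that to Chat, at 12.8, 13.4 and 9.75 against 11.1, 10.1 and 7.23. The denominators were chosen after their values were seen, so the ratios are given with no test.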
